A study of Mus musculus with 12 samples.

Results

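Cholesterol is made in the developing neocortex itself, and the 7 genes described here, Hmgcs1, Idi1, Fdft1, Sqle, Lss, Dhcr7 and Insig1, cover the successive steps of its synthesis and the sensor that restrains it. They were taken by symbol as a list of cholesterol genes, and each matched 1 of the 46603 genes in the count tables. RNA sequencing was performed on microdissected cortex of Chd8+/+ and Chd8+/- mice on a C57Bl/6J background at embryonic day 12.5 (E12.5) and postnatal day 5 (P5), with 3 libraries per genotype and stage. Chd8+/- mice carry 1 null allele of Chd8, a chromatin remodeling factor, in which exon 3 was removed by a ubiquitous β-actin-Cre that was afterwards bred out, so that every tissue is heterozygous. The line came from C57BL/6 embryonic stem cells and was kept by crossing to C57BL/6J, so that both genotypes share that background. Sex and litter are not given. Nothing in the labels says that the libraries of a group came from separate animals, and the p-values measure the spread between these libraries. Both hemispheres were taken at E12.5 and a single one at P5, and the stages were deposited in separate tables, so that stage cannot be told apart from these differences in sampling.

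In the synthesis pathway, acetyl-CoA units are joined and reduced to mevalonate, converted to isoprenoids, condensed to squalene, closed into the first sterol, lanosterol, and finally trimmed and reduced to cholesterol. The pathway is controlled by SREBP transcription factors, which are held in the endoplasmic reticulum by INSIG proteins when sterols are plentiful and released to the nucleus when sterols are low, so that transcripts of the pathway tend to move as a group. The brain depends on its own synthesis because circulating lipoprotein cholesterol does not cross the blood-brain barrier, and demand is high in growing membranes, in astrocytes and in myelin.

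SREBP activates promoters together with NF-Y and Sp1, and the promoters were therefore examined for the letters that these factors are known to recognise. The RefSeq promoter table for GRCm38.p6 matched 5 of the 7 genes with 7 windows, in each of which the 250 bases before the start were searched on both strands. The motifs were the SRE core CACNCCAC (5.29% of all 32817 promoter windows hold it), the NF-Y box CCAAT (33.8%), the GC box GGGCGG recognised by Sp1 (32.7%) and the E-box CACGTG (6.02%), which SREBP can also bind. Matches of different motifs did not overlap in the windows shown. An SRE core was found in 2 of the 7 windows, an NF-Y box in 5, a GC box in 6 and an E-box in 2. In 13 windows of 12 other synthesis enzymes, an SRE core was found in 1, an NF-Y box in 11, a GC box in 11 and an E-box in 2. One window per gene is given here, 5′ to 3′ on the plus strand, with every match in capitals. These are matches of letters, and whether a factor binds at them was not tested. Hmgcs1 at chr13:119690101-119690350 held an SRE core with 3 NF-Y boxes and 2 GC boxes, Idi1 at chr13:8885356-8885605 held 2 NF-Y boxes and 1 GC box, Lss at chr10:76531355-76531604 held 1 NF-Y box and 2 GC boxes, and Insig1 at chr5:28071162-28071411 held all 4 motifs. Of the 3 windows of Dhcr7, the one shown, at chr7:143829964-143830213 inside the annotated gene, held 2 NF-Y boxes and 3 GC boxes, while the other two held a single GC box and a single E-box.
Hmgcs1: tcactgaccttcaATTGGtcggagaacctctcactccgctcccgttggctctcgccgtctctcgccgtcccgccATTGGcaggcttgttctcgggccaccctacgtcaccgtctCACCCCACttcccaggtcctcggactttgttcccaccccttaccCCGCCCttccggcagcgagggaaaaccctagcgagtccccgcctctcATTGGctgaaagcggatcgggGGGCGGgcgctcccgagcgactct
Idi1: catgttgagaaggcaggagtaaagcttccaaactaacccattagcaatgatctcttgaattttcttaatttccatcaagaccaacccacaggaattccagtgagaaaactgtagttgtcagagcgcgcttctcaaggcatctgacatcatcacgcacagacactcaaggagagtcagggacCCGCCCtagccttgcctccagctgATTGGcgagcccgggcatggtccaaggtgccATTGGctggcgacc
Lss: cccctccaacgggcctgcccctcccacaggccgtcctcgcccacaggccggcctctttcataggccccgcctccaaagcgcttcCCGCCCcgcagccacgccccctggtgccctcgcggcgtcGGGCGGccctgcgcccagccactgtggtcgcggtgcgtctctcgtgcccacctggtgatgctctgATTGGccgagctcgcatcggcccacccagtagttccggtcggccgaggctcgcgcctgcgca
Dhcr7: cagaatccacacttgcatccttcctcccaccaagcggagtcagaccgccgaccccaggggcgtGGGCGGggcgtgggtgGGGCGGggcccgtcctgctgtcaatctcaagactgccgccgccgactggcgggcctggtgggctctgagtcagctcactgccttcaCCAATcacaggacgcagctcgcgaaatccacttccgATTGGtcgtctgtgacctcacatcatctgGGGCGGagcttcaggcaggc
Insig1: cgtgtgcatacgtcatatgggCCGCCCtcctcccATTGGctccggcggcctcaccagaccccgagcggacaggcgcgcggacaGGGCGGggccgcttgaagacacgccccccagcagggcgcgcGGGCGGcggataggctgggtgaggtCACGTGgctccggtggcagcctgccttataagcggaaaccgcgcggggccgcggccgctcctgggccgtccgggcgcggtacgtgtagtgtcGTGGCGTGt

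The 12 libraries held between 38774591 and 54695236 counts, and each of the 7 genes had between 2877 and 56218 counts in every library, so that all 7 passed the filter on low counts in every comparison. Levels are given as CPM, the counts of a gene relative to the library total, scaled by TMM over the 12 libraries, and levels of different genes are compared only per kilobase of merged exon. Chd8 itself checked the labels, with 229 to 235 CPM in the Chd8+/+ and 161 to 167 CPM in the Chd8+/- libraries at E12.5, and 145 to 151 CPM against 95.01 to 98.6 CPM at P5. The deletion lies in only 1 exon, so that these counts show the lower transcript level and not the missing sequence. At E12.5 the Chd8+/- library of replicate 2 stood apart in markers of other cells, with the highest summed level of meningeal fibroblast markers (1037 CPM, against 494 to 760 CPM in the other E12.5 libraries) and the lowest of excitatory neuron markers (466 CPM, against 601 to 743 CPM). At P5 the Chd8+/- library of replicate 3 stood apart in its counts over all genes, with a chi-square per degree of freedom of 49.99 and 44.0 against the other Chd8+/- libraries, where the other pairs of a group at P5 had 7.12 to 11.5.

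The first question was how the 7 genes change between the proliferative cortex of E12.5 and the cortex of P5. In Chd8+/+ libraries, the adjusted p of edgeR's quasi-likelihood test was under 0.05 for 6 of the 7 genes, against 83.1% of all 19676 genes tested, so that passing the test does not set these genes apart. Of the 7, 5 rose at P5 (41.4% of all genes tested rose) and 1 fell (41.7% of all fell). The median log2 fold change of the 7 genes was 0.33, beside -0.02 over all genes tested. With offsets for gene length, these medians were 0.04 and -0.24. Hmgcs1 rose the most and Idi1, which acts a few steps later, fell.

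Hmgcs1 (ENSMUSG00000093930, chr13:119690462-119708086, GRCm38, plus strand) encodes the cytosolic synthase that joins acetoacetyl-CoA and acetyl-CoA into HMG-CoA on the way to mevalonate. In Chd8+/+ libraries its level was 591, 608 and 573 CPM at E12.5 and 1047, 1117 and 981 CPM at P5. In Chd8+/- libraries it was 582, 651 and 612 CPM at E12.5 and 992, 991 and 1046 CPM at P5. All P5 libraries lay far above all E12.5 libraries, and at each stage the genotypes overlapped. The level rose by a log2 fold change of 0.83 (SE 0.0592, 95% interval 0.70 to 0.95, adjusted p = 5.55e-09 from edgeR) in Chd8+/+, which is 1.77-fold, and by 0.72 (SE 0.0591, adjusted p = 3.00e-08) in Chd8+/-.

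**Figure D1:**
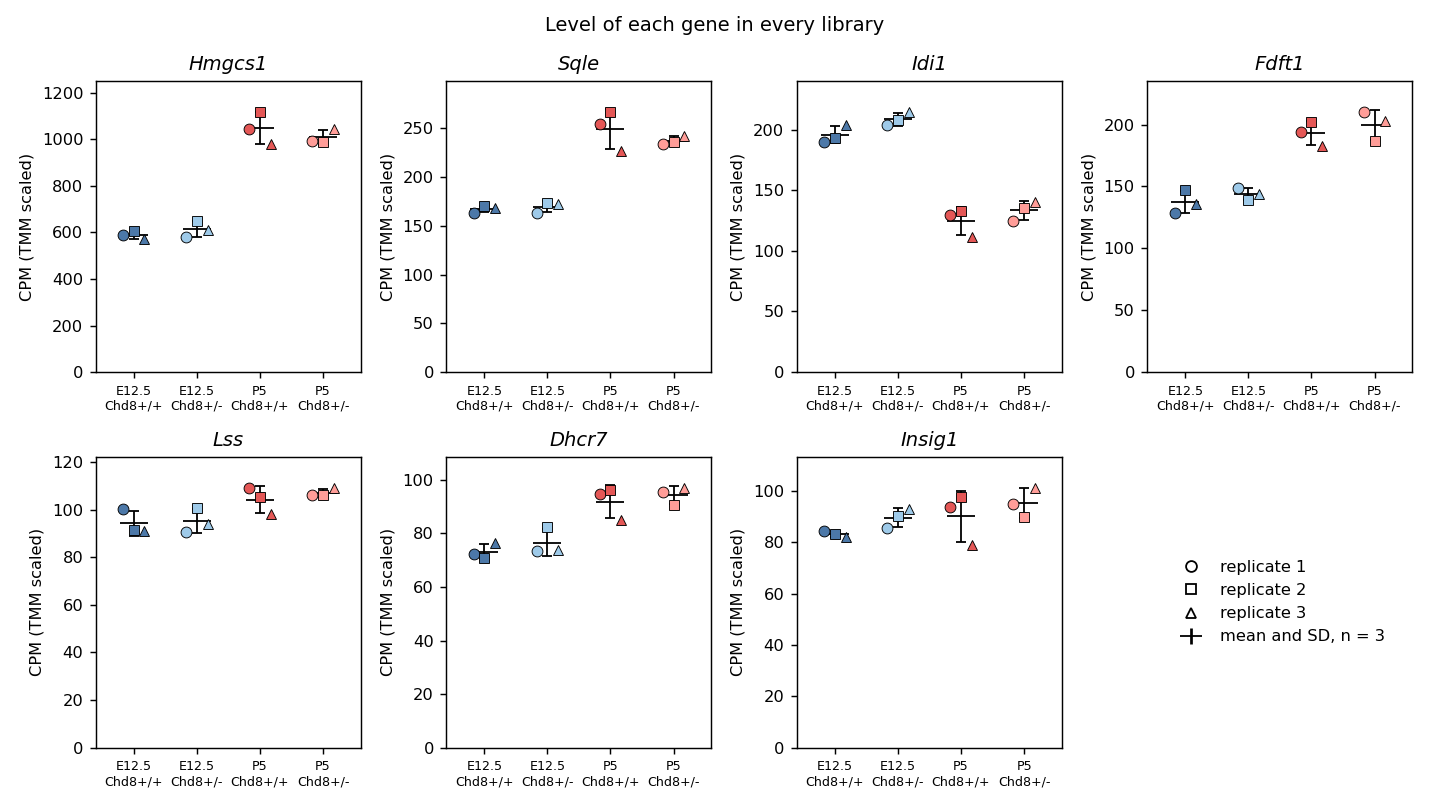
Level of each of the 7 genes in CPM (TMM scaled, linear axis from 0) in the 12 libraries, with 3 libraries per group as points, marked by replicate, and the mean and SD as bars. Hmgcs1, Sqle, Fdft1 and Dhcr7 stand higher and Idi1 stands lower in every P5 library than in any E12.5 library, while the genotypes lie close together at each stage.

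Idi1 (ENSMUSG00000058258, chr13:8885501-8892451, plus strand) encodes the isomerase that turns isopentenyl pyrophosphate into dimethylallyl pyrophosphate, the starter of all isoprenoid chains. Its level in Chd8+/+ libraries was 190, 194 and 203.6 CPM at E12.5 and 129, 133 and 112 CPM at P5. In Chd8+/- libraries it was 203.7, 208 and 214 CPM at E12.5 and 125, 135 and 141 CPM at P5. It is the gene among the 7 in which every P5 library was below every E12.5 library. Its log2 fold change was -0.65 (SE 0.0614, 95% interval -0.78 to -0.52, edgeR adjusted p = 1.41e-07) in Chd8+/+ and -0.64 (SE 0.0614, adjusted p = 1.58e-07) in Chd8+/-, so that the level at P5 was 0.637 and 0.64 of that at E12.5. Its paralog Idi2, known mainly from skeletal muscle, did not pass the filter on low counts at either stage.

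Fdft1 (ENSMUSG00000021273, chr14:63145153-63177793, minus strand) encodes squalene synthase, which commits farnesyl pyrophosphate to sterols. In Chd8+/+ libraries its level was 129, 147 and 136 CPM at E12.5 and 194, 202 and 183 CPM at P5, and in Chd8+/- libraries it was 149, 139 and 144 CPM at E12.5 and 210, 187 and 203 CPM at P5. The stages did not overlap and the genotypes did. The gene rose by a log2 fold change of 0.49 (SE 0.0575, edgeR adjusted p = 1.61e-06) in Chd8+/+ and 0.47 (SE 0.0575, adjusted p = 2.30e-06) in Chd8+/-. Of its exon bases, 26.8% are shared with the neighbouring gene Ctsb, and reads that fall there cannot be assigned to 1 gene, which leaves its level uncertain.

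Sqle (ENSMUSG00000022351, chr15:59315077-59331192, plus strand) encodes squalene epoxidase, an oxygen-requiring step between squalene and lanosterol and another point of control of the pathway. Its level was 163, 170 and 168 CPM in Chd8+/+ and 163, 173 and 172 CPM in Chd8+/- libraries at E12.5. At P5 it was 254, 266 and 226 CPM in Chd8+/+ and 234, 236 and 242 CPM in Chd8+/- libraries. The 6 E12.5 libraries were tightly grouped, and all P5 libraries were higher. The log2 fold change was 0.58 (SE 0.0537, edgeR adjusted p = 1.22e-07) in Chd8+/+ and 0.49 (SE 0.0537, adjusted p = 8.27e-07) in Chd8+/-.

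Lss (ENSMUSG00000033105, chr10:76531588-76557138, plus strand) encodes lanosterol synthase, which closes the squalene chain into the sterol ring system, and Dhcr7 (ENSMUSG00000058454, chr7:143823145-143848410, plus strand) encodes the reductase that completes cholesterol from 7-dehydrocholesterol and whose loss causes Smith-Lemli-Opitz syndrome. The level of Lss was 100.3, 91.4 and 91.1 CPM at E12.5 and 109, 105 and 98.1 CPM at P5 in Chd8+/+ libraries, and 90.6, 101 and 94.1 CPM and 106, 106 and 109 CPM in Chd8+/- libraries. Its stages overlapped in Chd8+/+ and did not in Chd8+/-. The rise of Lss was small, with a log2 fold change of 0.14 (SE 0.0510, edgeR adjusted p = 0.0172) in Chd8+/+ and 0.17 (SE 0.0511, adjusted p = 0.00639) in Chd8+/-. Without the P5 Chd8+/+ library of replicate 1 or that of replicate 2 the adjusted p in Chd8+/+ was 0.0931 and 0.0537. Lss shares 3.53% of its exon bases with the gene 4930483K19Rik.

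The level of Dhcr7 was 72.2, 70.9 and 76.3 CPM at E12.5 and 94.5, 96.2 and 84.8 CPM at P5 in Chd8+/+ libraries, and 73.6, 82.3 and 73.8 CPM and 95.6, 90.5 and 96.9 CPM in Chd8+/- libraries. The stages did not overlap in either genotype. The log2 fold change was 0.33 (SE 0.0567, edgeR adjusted p = 8.36e-05) in Chd8+/+ and 0.30 (SE 0.0568, adjusted p = 0.000189) in Chd8+/-.

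Insig1 (ENSMUSG00000045294, chr5:28071363-28078662, plus strand) encodes the sterol-regulated anchor that holds the SREBP complex in the endoplasmic reticulum, and it is itself a target of SREBP. Its level in Chd8+/+ libraries was 84.5, 83.1 and 82.1 CPM at E12.5 and 93.6, 97.6 and 78.8 CPM at P5. In Chd8+/- libraries it was 85.4, 90.3 and 93.0 CPM at E12.5 and 94.8, 89.6 and 101 CPM at P5. The stages overlapped in both genotypes, and the lowest of the 12 values came from the P5 Chd8+/+ library of replicate 3. The log2 fold change between stages was 0.11 (SE 0.0676, 95% interval -0.03 to 0.26, edgeR adjusted p = 0.136) in Chd8+/+ and 0.09 (SE 0.0677, 95% interval -0.06 to 0.23, adjusted p = 0.243) in Chd8+/-. Without that 1 library the difference in Chd8+/+ was 0.20 with an adjusted p of 0.00362.

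**Figure D2:**
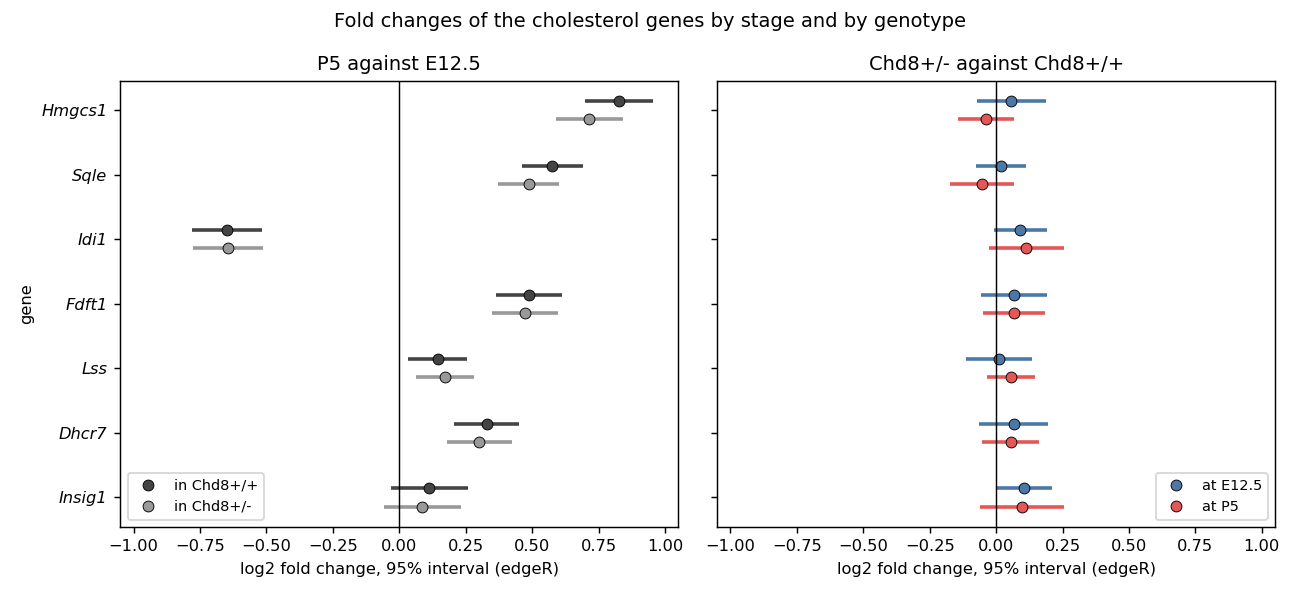
Log2 fold changes of the 7 genes with 95% intervals from edgeR, between stages (left panel, in Chd8+/+ and in Chd8+/-) and between genotypes (right panel, at E12.5 and at P5), on the same axis. Stage differences ran from -0.65 to 0.83 in Chd8+/+, while every genotype difference lay between -0.05 and 0.11.

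In Chd8+/- libraries the same test was passed by 6 of the 7 genes (82.9% of all genes tested), of which 5 rose (41.3% of all) and 1 fell (41.6% of all). These were the same 6 genes, in the same directions, as in Chd8+/+, from the other 6 libraries in a shared model. With DESeq2, 6 of 7 passed in Chd8+/+ (65.6% of the genes it tested) and in Chd8+/- (67.2%), and 6 of 7 passed with limma-voom (83.2% and 82.7%). Offsets fitted on gene length in each library, which take out differences that follow length, moved the median of all genes to -0.24 in Chd8+/+ and -0.20 in Chd8+/-. The values in Chd8+/+ were then 0.53 for Hmgcs1, 0.31 for Sqle, 0.20 for Fdft1, 0.04 for Dhcr7 and -0.94 for Idi1, and those in Chd8+/- were 0.44, 0.28, 0.20, 0.04 and -0.91. Relative to that median, the direction of all 7 genes was the same as before, from 0.77 for Hmgcs1 to -0.70 for Idi1 in Chd8+/+. As absolute values, Insig1 turned negative and passed the test in both genotypes (-0.18 and -0.19), Lss turned negative in Chd8+/+ (-0.09), and Lss and Dhcr7 no longer passed the test in either genotype under these offsets.

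Per kilobase of exon, Hmgcs1 had the highest level of the 7 genes in all 4 groups, with 183 ± 5.32 CPM per kb (SD, n = 3) in Chd8+/+ at E12.5 and 324 ± 21.1 at P5, and Lss had the lowest, with 8.74 ± 0.486 and 9.66 ± 0.513 CPM per kb. The merged exon length of Lss is 10787 bases, the longest of the 7, which lowers its value on this scale. At E12.5 the order in Chd8+/+ was Hmgcs1, Idi1, Fdft1, Sqle, Insig1, Dhcr7 and Lss, with no overlap between neighbours. At P5 Idi1 had moved from the second to the fourth place, behind Fdft1 (67.4 ± 3.39 CPM per kb) and Sqle (44.9 ± 3.70), with 35.6 ± 3.26 CPM per kb, and again no neighbours overlapped. The order in Chd8+/- was the same at each stage, and Sqle and Insig1 were the neighbours that overlapped there, at E12.5.

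The other steps of the pathway were read from a list of 15 further enzymes, of which 8 rose and 2 fell in Chd8+/+ (41.4% and 41.7% of all genes tested), with a median log2 fold change of 0.20. Of the 6 further enzymes up to farnesyl pyrophosphate, which had a median log2 fold change of 0.65, 5 rose, among them the mevalonate pyrophosphate decarboxylase Mvd (log2 fold change 1.34), Pmvk (0.71) and Mvk (0.71), and Acat2, the thiolase that feeds Hmgcs1, fell (-0.44). Idi1 thus fell between Mvd and Fdps (0.58), which both rose. Of the 9 further enzymes between lanosterol and cholesterol, with a median of 0.12, 3 rose and 1 fell. The sterol reductase step is shared by a pair of genes that moved in opposite directions, Tm7sf2 by 1.22 and Lbr, which also encodes a nuclear envelope protein, by -3.15. Cyp51, the demethylase next after Lss, had a value of -0.10 in Chd8+/+ (edgeR adjusted p = 0.105) and fell by 0.18 on the log2 scale in Chd8+/- (adjusted p = 0.00737), where 2 of the 9 fell, with no call for the interaction. In Chd8+/+, Msmo1 had a value of -0.01 (adjusted p = 0.924).

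**Figure D3:**
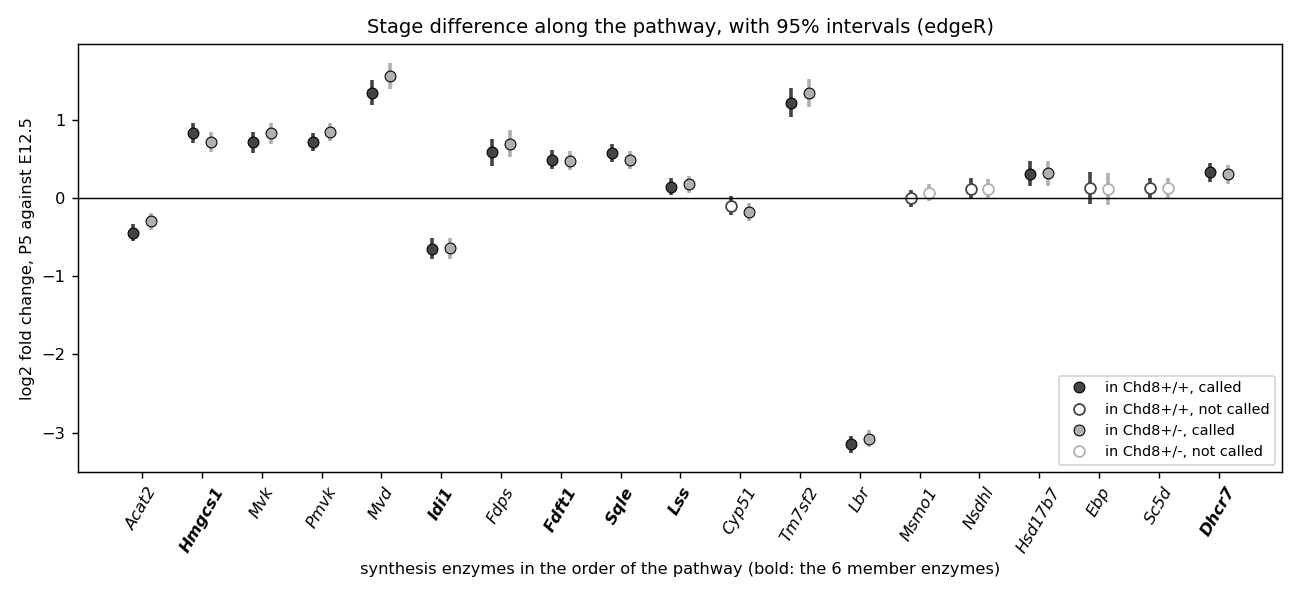
Log2 fold change between P5 and E12.5 with 95% intervals (edgeR) for synthesis enzymes in the order of the pathway, with 1 colour for Chd8+/+ and 1 for Chd8+/-, and open points where the adjusted p was 0.05 or more and the 6 enzymes described here in bold. Acat2, Idi1 and Lbr lie well below 0 in both genotypes, while the mevalonate steps around Idi1 lie above it.

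Among the genes around the pathway, the regulators did not move in 1 direction, and the counts in Chd8+/+ are to be read against the 41.4% of all genes that rose and the 41.7% that fell. Of 8 genes for sterol sensing and SREBP processing, 4 rose, led by Scap (0.65), the escort that INSIG retains, and 3 fell, among them Mbtps1 (-0.69) and Srebf1 (-0.52), whereas Srebf2, the main SREBP of cholesterol synthesis, had a value of 0.08 (edgeR adjusted p = 0.230). Of 10 genes for uptake and transport, 7 rose, led by Mylip (1.89) and Vldlr (1.77), and 3 fell, among them Npc2 (-0.95) and Stard4 (-0.48). Of 8 genes for efflux and storage, 6 rose, led by Apoe (4.25), the main lipoprotein component of astrocytes, and Cyp46a1 (2.39), which clears neuronal cholesterol, and 2 fell, Soat1 (-0.96) and Nr1h2 (-0.46). Of 9 SREBP targets in fatty acid synthesis, 5 rose, led by Scd1 (1.04), and 2 fell, Acly (-0.77) and Elovl6 (-0.40).

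The cell types of the cortex differ between these stages, and in bulk tissue fewer cells of a type and less RNA per cell cannot be told apart. Summed neural progenitor markers (7 of 7 fell in Chd8+/+) went from between 3133 and 3375 CPM at E12.5 to between 196 and 221 CPM at P5 in Chd8+/+ libraries. Summed astrocyte markers (7 of 8 rose) went from between 361 and 384 CPM to between 1722 and 1790 CPM, and summed oligodendrocyte lineage markers (8 of 10 rose) from between 132 and 141 CPM to between 531 and 573 CPM. Excitatory neuron markers (5 of 7 rose, 1 fell) went from between 601 and 685 CPM to between 1714 and 1835 CPM. Microglial markers (5 of 6 rose) went from between 30.3 and 31.4 CPM to between 89.3 and 120 CPM. Erythrocyte markers (6 of 7 fell, 1 rose) went from between 3059 and 3740 CPM to between 121 and 131 CPM. No defining marker of these lists was at 0 in all libraries of a group. Their part in the stage differences of Hmgcs1, Idi1 and the other genes was not tested.

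The second question was whether the loss of 1 Chd8 allele changes the pathway. At E12.5, edgeR's quasi-likelihood test called 0 of the 7 genes (0.00553% of 18081 genes tested were called, which is Chd8 alone), and 1 of 7, Insig1, had an unadjusted p under 0.05 (5.15% of all genes). DESeq2 called 0 of 7 (0.0102% of all genes it tested) and limma-voom 0 of 7 (0.00553%). The fitted difference was positive for all 7 genes (50.2% of all genes tested), with a median of 0.07 beside 0.00 over all genes tested. Without the Chd8+/- library of replicate 2 the median of the 7 genes was 0.02. Of the 15 further synthesis enzymes, 8 had positive and 7 negative values at E12.5, with a median of 0.02. Of those up to farnesyl pyrophosphate, 2 of 6 were positive, with a median of -0.01. Summed astrocyte markers were higher in every Chd8+/- library at E12.5 (395 to 402 CPM against 361 to 384 CPM, 5 of 7 tested with positive values). That sum came almost wholly from Gja1, Slc1a3, Slc1a2 and Aldoc, in each of which the genotypes overlapped. Aqp4, Gfap, Aldh1l1 and Gjb6 had group means of only 0.12 to 1.51 CPM at this stage. Summed endothelial markers were lower (204 to 216 CPM against 229.8 to 234 CPM, 6 of 6 negative). Of these astrocyte and endothelial markers 0 were called, and their part in the values of the 7 genes was not tested. Insig1 had the largest difference of the 7 genes, with a log2 fold change of 0.11 (SE 0.0463, edgeR adjusted p = 0.942). Its level was 83.2 ± 1.18 CPM (SD, n = 3) in Chd8+/+ and 89.6 ± 3.84 CPM in Chd8+/-. Idi1 followed with 0.09 (SE 0.0449, adjusted p = 0.942). In Insig1 and Idi1, 2 of the 7 genes, the genotypes did not overlap (11.4% of all genes), although for Idi1 the highest Chd8+/+ library, at 203.6 CPM, and the lowest Chd8+/- library, at 203.7 CPM, nearly met.

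The intervals bound what was not called at E12.5. For Hmgcs1 the difference was 0.06 with a 95% interval from -0.07 to 0.19, for Sqle 0.02 from -0.07 to 0.11, for Fdft1 0.07 from -0.06 to 0.19, for Lss 0.01 from -0.11 to 0.14 and for Dhcr7 0.07 from -0.06 to 0.19. No interval of the 7 genes reached beyond 1.16-fold. The Chd8+/- library of replicate 2, which stood apart in fibroblast and neuronal markers, had the highest level of 4 of the 7 genes at this stage, Hmgcs1, Sqle, Lss and Dhcr7. Without it, the difference was 0.02 for Hmgcs1, 0.01 for Sqle, 0.01 for Dhcr7 and -0.03 for Lss, while it was 0.10 for Insig1, 0.10 for Idi1 and 0.09 for Fdft1.

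At P5, edgeR called 0 of the 7 genes (0.00536% of 18666 genes, again Chd8 alone), and 0 of 7 had an unadjusted p under 0.05 (17.8% of all genes). DESeq2 called 0 of 7 (5.22% of the genes it tested) and limma-voom 0 of 7 (0.00536%). In 0 of the 7 genes did the genotypes not overlap (23.4% of all genes). The mean of Hmgcs1 was 1048 CPM in Chd8+/+ (SD 68.3, n = 3) and 1009 CPM in Chd8+/- (SD 31.7), a log2 fold change of -0.04 with a 95% interval from -0.14 to 0.07 (edgeR adjusted p = 0.702). Sqle, at 249 ± 20.5 CPM and 237 ± 4.46 CPM, had -0.05 from -0.17 to 0.07. The other genes had positive values, with Idi1 at 0.11 from -0.03 to 0.26, Insig1 at 0.10 from -0.06 to 0.25, Fdft1 at 0.07 from -0.05 to 0.18, Lss at 0.06 from -0.03 to 0.15 and Dhcr7 at 0.06 from -0.05 to 0.16. The interval of Idi1, the widest upward, ended at 1.19-fold. Without the Chd8+/+ library of replicate 3 the positive values were smaller, at 0.05 for Idi1, 0.02 for Insig1, 0.04 for Fdft1, 0.02 for Lss and 0.01 for Dhcr7. Hmgcs1 was then at -0.08 and Sqle at -0.11.

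Among the 15 further enzymes 0 were called by edgeR at P5, and 3 had an unadjusted p under 0.05 (20% of them, beside 17.8% of all genes), among them Mvd (log2 fold change 0.21, SE 0.0693) and Msmo1 (0.13, SE 0.0509). Their adjusted p values from edgeR were 0.174 and 0.229. DESeq2 called Mvd (adjusted p = 0.0455), beside 5.22% of all genes it tested. Without the P5 Chd8+/+ library of replicate 3 the edgeR values were 0.13 for Mvd and 0.08 for Msmo1, and the DESeq2 adjusted p of Mvd was 0.247. That call was also lost without replicate 1 of Chd8+/+ (0.166), replicate 1 (0.228) or 3 (0.210) of Chd8+/-, and with the replicate block (0.254). Leaving out libraries for these enzymes was chosen after seeing the data. Of the 21 enzymes of the pathway, 17 had a higher value in Chd8+/- at P5 (50.4% of all genes did), with a median log2 fold change of 0.07 beside 0.00 over all genes tested. Without the P5 Chd8+/+ library of replicate 3 these were 15 of 21 and 0.04. The Chd8+/- library of replicate 3, which stood apart over all genes, was the highest of the stage in 4 of the 7 genes and in 6 of the 15 further enzymes (12.2% of all genes). Without it 16 of 21 enzymes had a higher value, with a median of 0.06. For the 7 genes the median of 0.06 was 0.05 without this library and 0.02 without the Chd8+/+ library of replicate 3. Summed choroid plexus markers were lower in every Chd8+/- library at P5 (322 to 380 CPM, against 440 to 569 CPM in Chd8+/+), 7 of 7 with negative values. So were summed markers of GABAergic interneurons (477 to 548 CPM against 570.1 to 583 CPM, 6 of 6 negative) and, by a narrow margin, of endothelium (183 to 203.2 CPM against 203.5 to 232 CPM, 5 of 6 negative). Summed neural progenitor markers overlapped (178 to 209 CPM against 196 to 221 CPM), with 6 of 7 negative and 4 of 7 at an unadjusted p under 0.05. edgeR called 0 of these markers, with an unadjusted p under 0.05 for 5 choroid plexus, 3 interneuron and 5 endothelial markers, and their part in these differences was not tested.

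The third question was whether the genotype difference changed with stage. The interaction of genotype and stage was called for 0 of the 7 genes by edgeR (0% of 19676 genes tested), with 0 of 7 at an unadjusted p under 0.05 (10% of all genes), and for 0 of 7 by DESeq2 (0.0245%) and by limma-voom (0%). The largest values were -0.11 for Hmgcs1 (SE 0.0832, 95% interval -0.29 to 0.07, edgeR adjusted p = 0.666) and -0.09 for Sqle (SE 0.0758, adjusted p = 0.710). The other 5 genes lay between -0.03 and 0.03.

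Within a stage, the 7 genes shared their lowest library at P5 but not at E12.5. At P5 the Chd8+/+ library of replicate 3 was the lowest of the 6 libraries in 7 of the 7 genes, against 17.6% of all genes tested. Its log2 level lay below the mean of the stage by amounts from -0.07 for Hmgcs1 and -0.10 for Sqle to -0.20 for Idi1 and -0.23 for Insig1, with a mean of -0.13 over the 7 genes, while the median of all genes of at least 1 CPM deviated by -0.00. The same library was the lowest in 13 of the 15 further synthesis enzymes and in 7 of the 9 SREBP targets of fatty acid synthesis, in 3 of the 8 genes for sterol sensing, in 4 of the 10 for uptake and transport and in 1 of the 8 for efflux and storage. It held 45773945 counts, near the median of the stage. Its summed markers lay within the range of the other P5 libraries for 8 of 10 cell types, with microglial markers just below (89.3 CPM, against 92.0 to 120 CPM) and astrocyte markers just above it (1790 CPM, against 1556 to 1787 CPM). This library was chosen for description after its values were seen, and the part of any sampling difference in it was not tested.

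**Figure D4:**
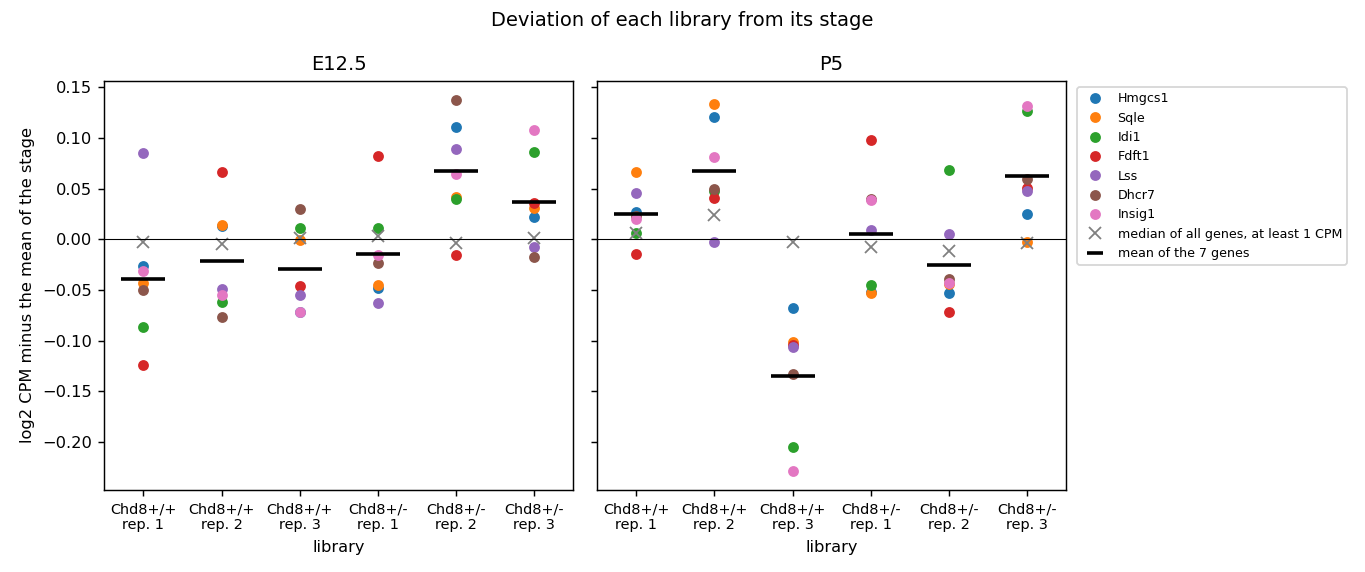
Deviation of each library's log2 CPM from the mean of the 6 libraries of its stage, with the 7 genes as coloured points, their mean as a black bar and the median of all genes of at least 1 CPM as a grey cross. At P5 the 7 points of the Chd8+/+ library of replicate 3 all lie below 0, with a mean of -0.13.

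At E12.5 the lowest library differed from gene to gene, being replicate 1, 2 or 3 of Chd8+/+ or replicate 1 of Chd8+/-. In each E12.5 library some of the 7 genes lay above and others below the stage mean, and at P5 this held for each library except the Chd8+/+ library of replicate 3. At P5 the means of the 7 genes were 0.02 and 0.07 in the other Chd8+/+ libraries and 0.01, -0.03 and 0.06 in the Chd8+/- libraries, so that the genotypes overlapped. At E12.5 they did not overlap, with -0.04, -0.02 and -0.03 in the Chd8+/+ libraries and -0.01, 0.07 and 0.04 in the Chd8+/- libraries. The highest Chd8+/+ mean, -0.021, and the lowest Chd8+/- mean, -0.014, nearly met. The highest mean, 0.07, came from the Chd8+/- library of replicate 2, which stood apart in fibroblast and neuronal markers. Among single genes at this stage, the genotypes did not overlap in 11.4% of all genes tested.

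The genes most like the 7 were sought by the correlation, over the 12 libraries, of the log2 CPM centred within each stage with the mean of the 7 centred genes, among 13994 genes of at least 1 CPM at each stage. The points share the libraries and hence depth and dissection, the 7 genes are part of their own mean, and the correlations are a description. Cyp51 ranked first of all genes (r = 0.96), Insig1 was second (r = 0.95) and Hsd17b7, a sterol ketone reductase, came next (r = 0.91). Of the 7 genes, the next were Dhcr7 (r = 0.84, rank 17) and Idi1 (r = 0.83, rank 26), and the least alike was Fdft1 (r = 0.55, rank 780). Of the 15 further enzymes, 4 were among the 100 highest other genes, and their median r was 0.65, beside 0.05 over all genes. Within a stage, over 6 libraries each, their median r was 0.30 at E12.5 and 0.80 at P5, where the low library stands apart, beside -0.01 and 0.10 over all genes. Outside all lists, the 5 genes with the highest r were Gstp-ps (0.90), Cdr2 (0.90), Decr1 (0.90), Sec61a1 (0.88) and Spa17 (0.87). Decr1 encodes a mitochondrial reductase of fatty acid breakdown and Sec61a1 a subunit of the translocon of the endoplasmic reticulum. Gstp-ps is a pseudogene whose reads may be shared with its parent genes, and its level was 2.06 CPM at E12.5 and 2.24 CPM at P5 on average.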

How the data were processed

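RNA was sequenced from the cortex of 12 samples, each in 2 runs. The authors trimmed reads (Trim Galore 0.4.1), aligned them to GRCm38 with TopHat2 2.1.0 and counted them per Ensembl gene with featureCounts 1.5.0, per the labels and methods, and the deposited values are raw counts per run. The 2 runs of a library differed by somewhat more than sampling noise and were summed. Their chi-square per degree of freedom was 1.18 to 1.55, beside 7.12 or more between libraries of a group. Genes were named from the annotation table (46005 of 46603 matched). The genotype comparisons used the 6 libraries of a stage, and the stage comparisons and the interaction used all 12 libraries, with edgeR 4.0.16 (quasi-likelihood, TMM, filterByExpr), Benjamini-Hochberg adjustment over all genes tested and a threshold of 0.05, in R 4.3.3. DESeq2 1.42.0 and limma-voom 3.58.1 were alternatives, with other scalings, filters, gene length offsets, the replicate block and each library left out. The genotype fits of edgeR and DESeq2 were tried on simulated counts, while the model of all 12 libraries was not. Depth limits single genes little, since each had at least 2877 counts per library. The genes named are the 7, those with the largest and smallest stage values and the smallest genotype p in each pathway list, and the 5 most alike genes, and some genes of the lists are not reported here. The 7 genes and all lists were chosen with earlier results of these data known.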

Additional observations from a re-analysis of the deposited data

How the results depend on the processing

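The number of the 7 genes called stayed between 5 and 7 for stage in Chd8+/+, between 5 and 6 for stage in Chd8+/-, and at 0 for both genotype comparisons and the interaction, under each alternative run. Gene length offsets moved the median of the 7 genes to 0.04 in both stage comparisons, and gave -0.090 for Lss in Chd8+/+, and -0.18 and -0.19 for Insig1 in Chd8+/+ and Chd8+/-. They also ended the calls of Dhcr7 (0.04 in each genotype) and of Lss in Chd8+/- (0.02). Insig1 passed the test in Chd8+/+ with RLE size factors (0.15, edgeR adjusted p = 0.0490) and upper quartile factors (0.15, adjusted p = 0.0453), and Lss did not with total counts (0.09, adjusted p = 0.126). With single libraries left out, the stage value in Chd8+/+ ranged from 0.05 to 0.20 for Insig1 and from 0.11 to 0.18 for Lss. Uncalled genotype values that changed sign ranged from -0.0021 to 0.046 for Sqle and from -0.027 to 0.055 for Lss at E12.5, and from -0.077 to 0.0092 for Hmgcs1 at P5. Uncalled interaction values ranged from -0.066 to 0.059 for Idi1, from -0.054 to 0.061 for Fdft1, from -0.013 to 0.077 for Lss, from -0.080 to 0.036 for Dhcr7 and from -0.11 to 0.04 for Insig1. The interaction of Fdft1 was 0.0068 with upper quartile factors, 0.0096 with total counts and 0.00023 with gene length offsets, which gave 0.0057 for Dhcr7. The causes of these changes were not tested.

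Over all genes, edgeR called 1 gene at E12.5, 1 at P5 and 0 for the interaction, and DESeq2 called 3, 651 and 8. Without a filter on low counts edgeR called 13, 995 and 17, and without the P5 Chd8+/- library of replicate 2 it called 327 at P5, none of them among the 7 genes. DESeq2 called between 57 (without the P5 Chd8+/+ library of replicate 1) and 891 (without the Chd8+/- library of replicate 2) at P5 with single libraries left out, and 86 with the replicate block. Leaving out replicate 2 of Chd8+/+ gave 118, and leaving out replicate 1 or 3 of Chd8+/- gave 145 or 313. At E12.5 libraries with the same replicate number did not deviate together (correlations of -0.156, -0.064 and -0.049, beside -0.074 to 0.143 for different numbers). At P5 the correlations of the same number were 0.187, 0.078 and 0.038, beside -0.138 to 0.072 for different numbers, a weak lean together. The labels give no pairs, and the main fits did not take the numbers as pairs. With the replicate block edgeR called 0 of the 7 genes in each genotype comparison and the interaction, and over all genes 0 at E12.5, 4 at P5 and 0 for the interaction.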
